A study of Homo sapiens with 6 samples.

Results

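The sites described here are TRIM24 peaks that both LNCaP peak lists hold and the LNCaP-abl list lacks. They were selected on the presence or absence of peaks: each is a peak of the LNCaP vehicle list that shares at least 1 bp with a peak of the LNCaP DHT list and none with a peak of the LNCaP-abl list. There were 250 of them among the 9744 vehicle peaks, or 2.57% (exact Clopper-Pearson 95% confidence interval 2.26 to 2.90). Of all vehicle peaks, 48.6% had a DHT peak and 11.6% had no LNCaP-abl peak. The 3 lists together hold 37470 peaks. By position they fell into 5 sites on the mitochondrial genome, 107 sites beside a centromere and 138 remaining sites on the chromosome arms.

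TRIM24 occupancy was measured by ChIP-seq, which sequences the DNA that an antibody pulls down with chromatin, in human prostate cancer cell lines. LNCaP is an androgen-dependent line derived from a lymph node metastasis. Its DHT group was starved of hormone for 72 h in medium with charcoal/dextran-treated serum and then given the androgen dihydrotestosterone (DHT) at 10 nM for 4 h. The castration-resistant line LNCaP-abl, derived from LNCaP, was always kept in charcoal/dextran-treated serum and received vehicle for 4 h. The LNCaP vehicle group was starved like the DHT group and given ethanol for 4 h. One antibody against TRIM24 was used throughout, and each condition had 1 ChIP library. Differences between conditions thus have no replicates behind them and were not tested. The input libraries were not analysed. Whether a peak reflects bound TRIM24, on mitochondrial DNA and beside centromeres included, was therefore not tested either.

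TRIM24 is a chromatin reader of the tripartite motif family: its PHD finger and bromodomain together bind the tail of histone H3, and it acts as a coregulator of nuclear receptors, the androgen receptor among them. Centromeres of human chromosomes are built on long arrays of alpha satellite repeats, and the hg19 assembly has a gap in place of most of each array, with short stretches of repeats left at its edges. Mitochondrial DNA is a circle outside the nucleus. Its noncoding control region, which lies on both sides of the point where numbering starts, holds the promoters and an origin of replication.

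The overlaps that define the sites also set much of what can be measured on them, so scores, widths and distances are given as descriptions, without a test. A score is a −log10 p or q value from the authors' peak caller. Scores grow with depth, unknown here, so the 2 LNCaP lists are compared by rank. A percentile below is the share of a site's own list that scores at or below it. The DHT list held 7105 peaks with a median score of 6.82, the LNCaP-abl list 20621 peaks with a median of 26.1 and the vehicle list 9744 peaks with a median of 6.46. The lowest score was just above 2 in each list. Of the 4734 vehicle peaks with a DHT peak, 5.28% (4.66 to 5.96) lacked a LNCaP-abl peak, and 17.6% (16.5 to 18.7) of the 5010 others lacked one. The intervals reflect counting error alone and take neighbouring peaks as independent, which they are not. Positions are in hg19, counted from 1. Sites are named by position, since no annotation or sequence of that build was used here.

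The mitochondrial sites included the highest-scoring of all 250 sites in either LNCaP list. At chrM:15187-16571, the end of the numbering, the score was 48.5 under DHT, where the peak spanned chrM:16041-16571, and 76.1 under vehicle. These peaks ranked 86th in the DHT list and 34th in the vehicle list. At chrM:1-664, the start of the numbering, the score was 25.2 under DHT and 32.5 under vehicle. On the circular genome both peaks therefore meet at the numbering origin, a point inside the control region. How much of each peak lies in that region was not measured. The other 3 sites lay elsewhere on the circle. At chrM:3361-3709 the score was 14.6 under DHT and 12.9 under vehicle, and at chrM:12944-13296 it was 12.5 under DHT and 8.66 under vehicle. At chrM:13574-14570 it was 8.36 under DHT and 18.6 under vehicle, and the vehicle peak there overlapped 2 DHT peaks. By percentile within its own list, the DHT peak stood higher at 2 of the 5 sites and the vehicle peak at 3.

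Coverage of the mitochondrial genome differed more between the lists than the shared sites show. There were 7 DHT peaks covering 2728 bp, 0 LNCaP-abl peaks and 9 vehicle peaks covering 4799 bp. The single DHT peak without a vehicle partner was chrM:14779-15050, with a score of 13.6. The 4 vehicle peaks without a DHT partner lay between chrM:9749 and chrM:11927, with scores between 3.23 and 12.2.

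Beside the centromeres, the 2 LNCaP lists shared dense groups of TRIM24 peaks, which LNCaP-abl lacked more often than shared peaks elsewhere. A site was called centromere-side when its midpoint lay within 1 Mb of the assembly gap at the centromere. Of the 178 vehicle peaks there that had a DHT peak, 107 (60.1%, 52.5 to 67.4) had no LNCaP-abl peak, against 138 of 4551 (3.03%, 2.55 to 3.57) elsewhere on the nuclear chromosomes. Centromere sides made up 42.8% (36.6 to 49.2) of the 250 sites and 1.58% (1.24 to 1.99) of the 4484 vehicle peaks present in all 3 lists. Both contrasts moved with the settings. Centromere sides made up 17.4% of the sites with lists of equal length, 15.1% with peaks of 400 bp and 5.78% where overlaps had to cover 50% of both peaks. In the last of these, a LNCaP-abl peak with a smaller overlap counted as absent. The share without a LNCaP-abl peak beside centromeres was 90.6%, 60.8% and 74.8% under these settings, against 18.6%, 12.7% and 59.4% elsewhere, in the same order. That share beside centromeres was 48.9% with a LNCaP-abl peak within 1 kb counted as shared, and 48.7% with a flank of 2 Mb. Elsewhere these values were 2.37% and 2.87%. The LNCaP-abl list was not empty of such peaks: there were 238 DHT, 239 LNCaP-abl and 246 vehicle peaks within the same distance of a centromere gap. They were 3.35% of the DHT list, 1.16% of the LNCaP-abl list and 2.52% of the vehicle list.

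Centromere-side sites were found on 18 chromosomes and were concentrated on a few. Chromosome 10 held 21 of the 107, chromosome 2 held 19, chromosome 4 held 12 and chromosome 7 held 11, which is 63 sites on 4 chromosomes. Chromosome 11 followed with 9 and chromosome 8 with 8. Chromosomes 10, 2, 4 and 7 also held 37, 31, 16 and 12 of the 178 centromere-side vehicle peaks with a DHT peak. Those peaks were thus grouped on these chromosomes too. The centromere-side sites sat close to the gap, with 61 of 107 (57.0%, 47.1 to 66.5) less than 100 kb from it and a median distance of 75.7 kb. Distances of other centromere-side peaks from the gap were not summarised, so this closeness is not shown to be particular to the sites. The 19 sites of chromosome 2 spanned 52.3 kb on the short-arm side, and the site nearest the gap lay 1.33 kb from it. On the short-arm side of chromosome 11, 8 sites spanned 12.5 kb, and on the long-arm side of chromosome 10, 20 sites spanned 462 kb.

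**Figure D1:**
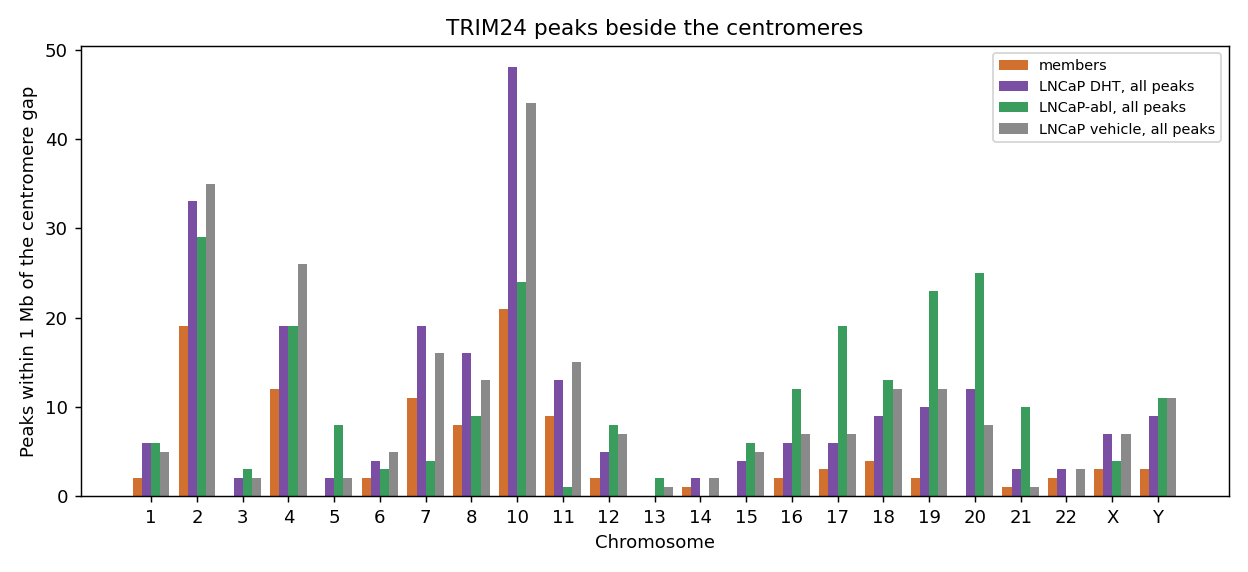
TRIM24 peaks within 1 Mb of the centromere gap on each chromosome (y axis, number of peaks), for the sites of both LNCaP lists without a LNCaP-abl peak (members) and for all peaks of the LNCaP DHT, LNCaP-abl and LNCaP vehicle lists. LNCaP peaks outnumber LNCaP-abl peaks on chromosomes 7, 10 and 11, among others. LNCaP-abl peaks outnumber LNCaP peaks on chromosomes 17, 19 and 20, among others. Counts are not scaled to list length, and the LNCaP-abl list is the longest.

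The balance of the lists differed from one centromere to the next. On chromosome 7 the centromere sides held 19 DHT, 4 LNCaP-abl and 16 vehicle peaks, and on chromosome 11 they held 13 DHT, 1 LNCaP-abl and 15 vehicle peaks. On chromosome 10 there were 48 DHT, 24 LNCaP-abl and 44 vehicle peaks. Chromosome 20 was at the other end, with 12 DHT, 25 LNCaP-abl and 8 vehicle peaks and none of the sites described here. Chromosome 17 had 6 DHT, 19 LNCaP-abl and 7 vehicle peaks and 3 of the sites. By raw count, LNCaP-abl thus had fewer peaks than LNCaP beside some centromeres and more beside others, in these libraries. The counts were not scaled to list length, and the LNCaP-abl list held 20621 peaks against 7105 DHT and 9744 vehicle peaks.

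The strongest centromere-side site by the lower of its 2 LNCaP scores was chr18:18516401-18516785, with 35.3 under DHT and 35.5 under vehicle. A LNCaP-abl peak lay 70 bp from the vehicle peak, with a score of 13.2, and the 829 bp DHT peak overlapped it. The site at chr10:42399275-42399650 scored 30.6 under DHT and 24.2 under vehicle, and chr10:42393098-42393582 scored 20.4 under DHT and 23.9 under vehicle. Both lay less than 1 kb from a LNCaP-abl peak. The sites at chr19:27735161-27735535, with 20.4 under DHT and 22.4 under vehicle, and at chr8:43794569-43794938, with 18.5 under DHT and 18.8 under vehicle, followed. At chr2:92309480-92309898 the score was 24.9 under DHT and 17.9 under vehicle. At chr7:61971047-61971459 it was 31.4 under DHT and 17.9 under vehicle. The last of the 8 highest, chr10:42364593-42365349, had 17.0 under DHT and 23.9 under vehicle. Of these 8 sites, 3 stood at a higher percentile in the DHT list than in the vehicle list.

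Centromere-side sites were strong among the peaks of their own lists. Their median score was 10.98 under DHT and 9.64 under vehicle, which placed the median site at percentile 80.1 of the DHT list and 75.6 of the vehicle list. Both scores were at least 10 at 41 of 107 sites. The DHT percentile was the higher one at 63 sites and the vehicle percentile at 44. The DHT peak covered a median of 99.4% of the vehicle peak, against 98.6% for centromere-side vehicle peaks in all 3 lists and 72.0% for those away from centromeres. The 71 centromere-side vehicle peaks that LNCaP-abl did share scored higher still, with medians of 19.5 under DHT and 19.6 under vehicle.

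Absence from LNCaP-abl was least frequent at the highest vehicle scores, leaving out a centromere-side decile of 1 peak. Among centromere-side vehicle peaks with a DHT peak, the share without a LNCaP-abl peak was 85.7% (42.1 to 99.6) in the fourth decile of vehicle scores, 77.5% (61.5 to 89.2) in the ninth and 26.7% (16.1 to 39.7) in the highest. Away from centromeres it was 6.63% (4.20 to 9.86) in the fourth decile, 1.97% (1.08 to 3.28) in the ninth and 1.04% (0.475 to 1.96) in the highest. The fourth decile had the largest share in both classes, resting on 6 of 7 peaks beside centromeres. The shares did not fall steadily with score. Away from centromeres they were 2.57% in the fifth decile and 4.80% in the seventh. The highest decile began at a vehicle score of 14.7.

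**Figure D2:**
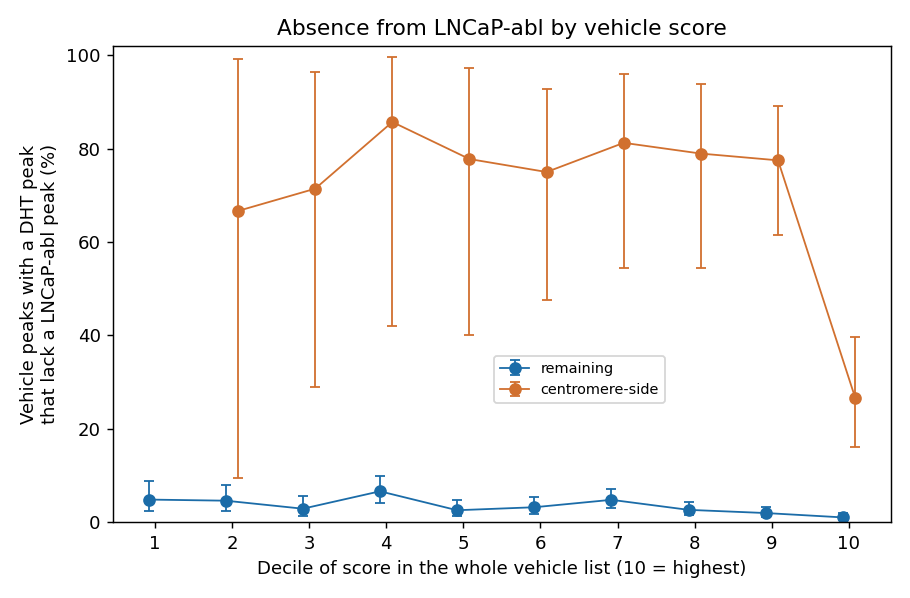
Share of vehicle peaks with a DHT peak that had no LNCaP-abl peak (y axis, percent, with exact 95% binomial intervals) by decile of the score in the whole vehicle list (x axis), for the remaining sites and the centromere-side sites. Shares beside the centromeres lie far above those elsewhere and drop in the highest decile; the lowest decile had 1 centromere-side peak and is not drawn for that class.

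The 138 remaining sites were weaker and more scattered than the centromere-side ones. Their median score was 8.49 under DHT and 6.98 under vehicle, against 7.84 under DHT and 8.49 under vehicle for the 4413 vehicle peaks of all 3 lists away from centromeres. The median site stood at percentile 67.1 of the DHT list and 56.1 of the vehicle list. The DHT percentile was the higher one at 81 of 138 sites (58.7%) and at 1749 of the 4413 peaks in all 3 lists (39.6%). Their median width was 287 bp under DHT and 263 bp under vehicle, against 352 bp under DHT and 388 bp under vehicle for the peaks in all 3 lists. Peaks of 200 bp, the narrowest in the LNCaP lists, accounted for 19 of the DHT partners and 24 of the vehicle peaks. Both scores reached 10 at 19 of the 138 sites.

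**Figure D3:**
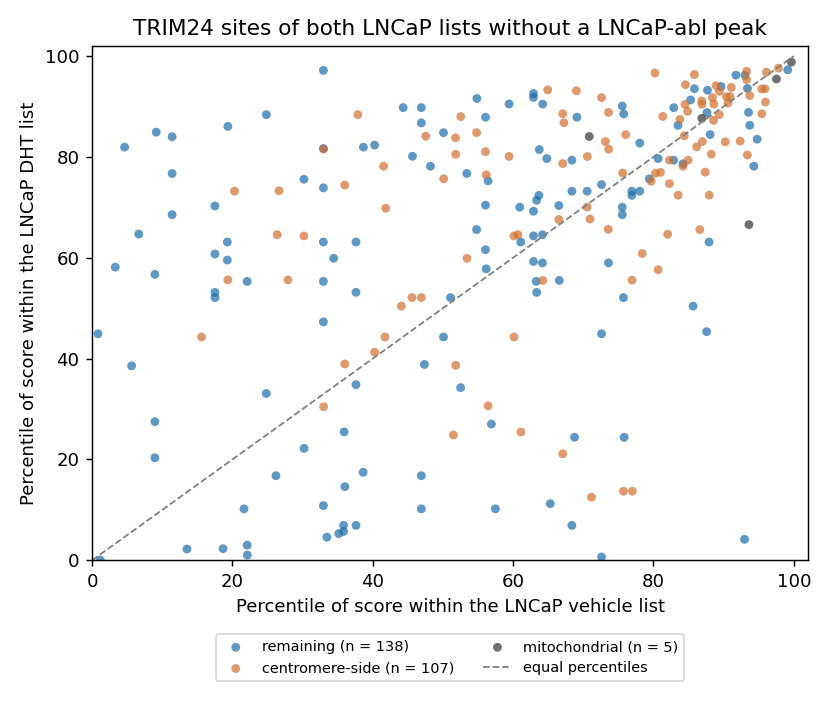
Percentile of each of the 250 sites by score within the LNCaP DHT list (y axis) and within the LNCaP vehicle list (x axis), by class, with the line of equal percentiles. Points above the line stood higher in the DHT list, which holds for 81 of the 138 remaining sites, 63 of the 107 centromere-side sites and 2 of the 5 mitochondrial sites.

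One remaining site led the class by the lower of its 2 LNCaP scores. At chr19:56181502-56182058 the score was 33.6 under DHT and 55.5 under vehicle, rank 195 of the DHT list and rank 85 of the vehicle list. The nearest LNCaP-abl peak lay 3.98 kb away and was itself strong, with a score of 158, and LNCaP-abl had 21 peaks within 100 kb. This site therefore lay in a stretch with many LNCaP-abl peaks.

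A second kind of strong site lay far from any LNCaP-abl peak. At chr12:55413597-55413895 the score was 28.2 under DHT and 17.6 under vehicle, with 431 kb to the nearest LNCaP-abl peak. At chr1:37721012-37721270 it was 28.3 under DHT and 16.2 under vehicle, with 193 kb to the nearest one. At chr18:44786655-44787020 it was 15.1 under DHT and 13.3 under vehicle, with 83.8 kb. All 3 stood at a higher percentile of the DHT list than of the vehicle list. The chr12 and chr1 sites lay 100 kb or more from the nearest LNCaP-abl peak. Among remaining sites with both scores at least 10, such a distance was otherwise seen in groups on chromosomes 2 and 11, described next.

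Several of the strongest remaining sites came in tight groups. On chromosome 11, 5 sites spanned 94.4 kb, and the span held no LNCaP-abl peak. They were led by chr11:48804979-48805331, with 13.6 under DHT and 18.8 under vehicle, and chr11:48810127-48810483, with 19.98 under DHT and 13.3 under vehicle. On chromosome 2, 7 sites spanned 12.1 kb, again with no LNCaP-abl peak, and the nearest one was 569 kb away. The leading sites there were chr2:89875133-89875486, with 17.4 under DHT and 12.3 under vehicle, and chr2:89872673-89872892, with 16.04 under DHT and 11.4 under vehicle. On chromosome 16, 3 sites spanned 20.8 kb without a LNCaP-abl peak, led by chr16:34022561-34022925 with 20.6 under DHT and 18.1 under vehicle. These 3 groups were the nearest sites to a centromere on their chromosomes outside the 1 Mb limit, at least 2.75 Mb, 2.45 Mb and 1.31 Mb from the gap in that order.

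Other groups were interleaved with LNCaP-abl peaks. A second group on chromosome 2, far from the centromere, held 6 sites in 37.8 kb, among 13 DHT, 10 LNCaP-abl and 16 vehicle peaks in all. Its strongest site was chr2:133012563-133012776, with 12.7 under DHT and 13.5 under vehicle, 63 bp from a LNCaP-abl peak. On chromosome 4, chr4:68264491-68264951 scored 15.2 under DHT and 18.5 under vehicle, and chr4:68265841-68266192 scored 21.3 under DHT and 14.5 under vehicle. They flanked 1 LNCaP-abl peak, at 441 bp and 221 bp, with a score of 8.06. The 984 bp DHT peak of the second site overlapped that LNCaP-abl peak. On chromosome 20, chr20:62117689-62118732 led a group of 3 sites, with 10.7 under DHT and 19.6 under vehicle.

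In all, 40 of the 138 remaining sites lay less than 100 kb from another of them, in 12 groups, and 98 stood alone. The groups included the fullest chromosome of the class: chromosome 2 held 16 sites (11.6%, 6.77 to 18.1) and 3 without the grouped ones, and it held 6.66% of the vehicle peaks in all 3 lists. Chromosome 1 held 15 sites (10.9%, 6.21 to 17.3), against 12.0% of the peaks in all 3 lists. Chromosome 19 held 12 sites (8.70%, 4.57 to 14.7), all standing alone, against 5.39%. Each of these intervals other than that of chromosome 2 includes the share of the peaks in all 3 lists, and no adjustment was made for the number of chromosomes.

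**Figure D4:**
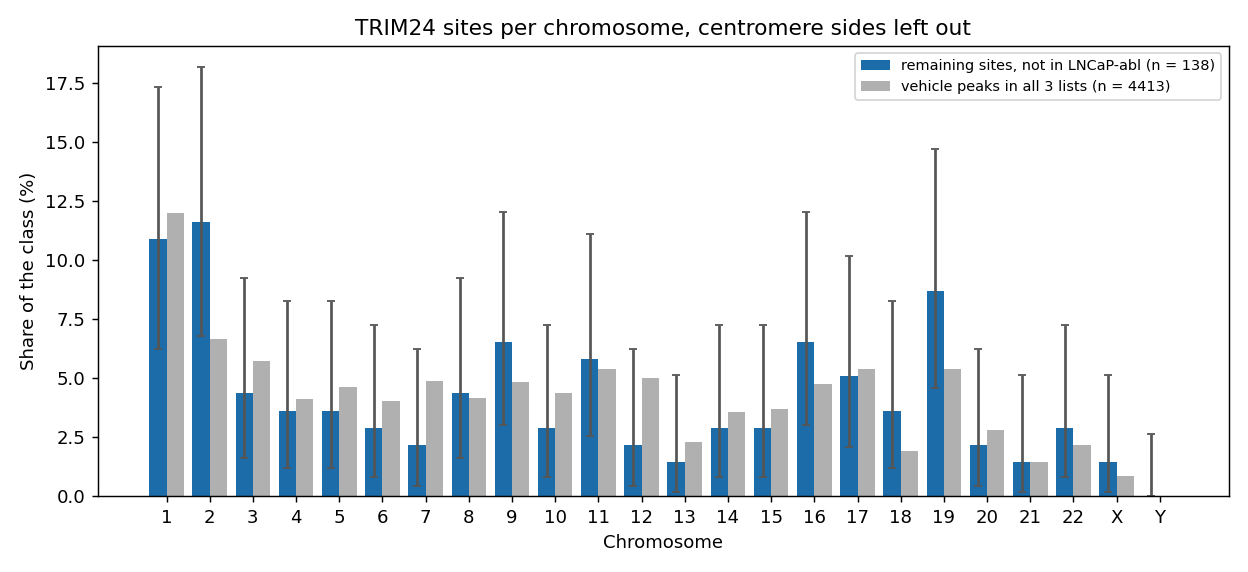
Share of each class per chromosome (y axis, percent), for the 138 remaining sites with exact 95% binomial intervals and for the 4413 vehicle peaks in all 3 lists, centromere sides left out of both. Chromosomes 2 and 19 are among those that hold larger shares of the remaining sites, with wide intervals. Without the grouped sites, chromosome 2 holds 3.

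The other strong sites stood alone. At chr22:29874575-29874893 the score was 20.5 under DHT and 12.6 under vehicle, and at chr22:39941851-39942141 it was 12.3 under DHT and 20.7 under vehicle, so that the first stood at a higher percentile of the DHT list and the second of the vehicle list. At chr5:1409446-1409821 it was 13.5 under DHT and 11.4 under vehicle. Scores between 10 and 12 in both lists were found at chr3:9746040-9746393, with 10.8 under DHT and 11.4 under vehicle, and at chr4:5892797-5893107, with 10.7 under DHT and 11.7 under vehicle. They were also found at chr1:6221717-6222142, with 10.9 under DHT and 10.7 under vehicle. The last of the 20 highest, chr11:1777211-1777482, scored 12.1 under DHT and 9.99 under vehicle. LNCaP-abl peaks lay between 0.349 kb and 10.7 kb from these 7 sites.

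A few sites were shared by position but ranked very differently, and the following pair was chosen after the values were seen. At chr1:11610813-11611050 the score was 32.0 under DHT and 5.29 under vehicle, rank 204 of the DHT list and rank 6534 of the vehicle list. At chr3:50442677-50442929 it was 3.32 under DHT and 17.5 under vehicle, rank 6811 of the DHT list and rank 685 of the vehicle list. Across the 138 sites the rank correlation of DHT and vehicle scores was 0.41 (Spearman's rho), against 0.48 across the vehicle peaks in all 3 lists. The sites of each correlation share the same pair of libraries, so these values only describe the lists.

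With whole lists, of which the LNCaP-abl list was the longest, most remaining sites had a LNCaP-abl TRIM24 peak within 100 kb. The median distance to the nearest LNCaP-abl peak was 15.9 kb. It was under 1 kb at 30 of 138 sites (21.7%, 15.2 to 29.6), under 10 kb at 62 (44.9%, 36.5 to 53.6) and under 100 kb at 108 (78.3%, 70.4 to 84.8). The median number of LNCaP-abl peaks within 100 kb was 3, as it was for vehicle peaks in all 3 lists with their own partner left out. In lists cut to 7105 peaks by score, 12.2% of the remaining sites lay under 10 kb from a LNCaP-abl peak and the median number within 100 kb was 1. Vehicle peaks found in neither of the other lists were placed alike, with 23.0% (20.2 to 26.0) under 1 kb and 46.7% (43.3 to 50.2) under 10 kb. Where a LNCaP-abl peak lay within 1 kb, its median score was 8.12, below the median of 26.1 of that list. For centromere-side sites the median distance was 4.11 kb, with 20 of 107 (18.7%, 11.8 to 27.4) under 1 kb and 69 (64.5%, 54.6 to 73.5) under 10 kb.

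**Figure D5:**
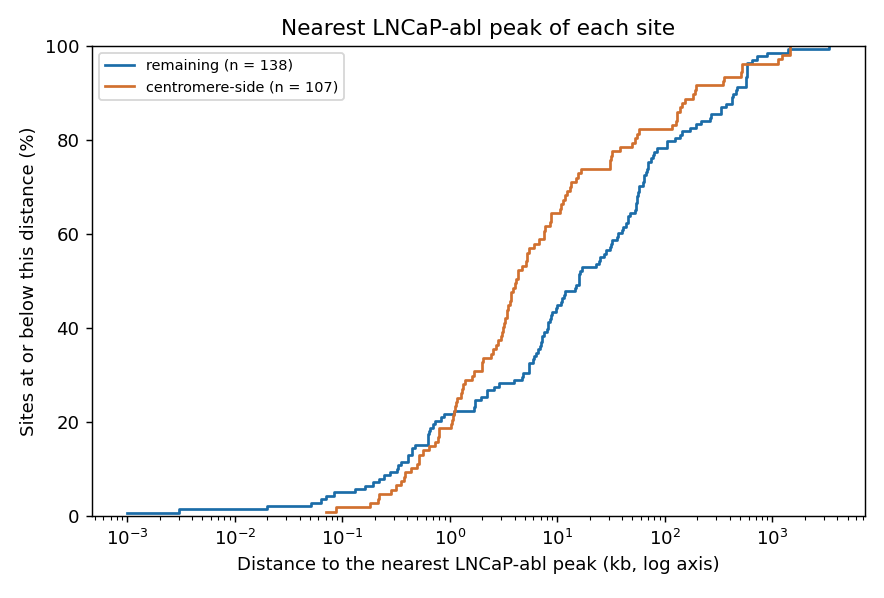
Cumulative share of sites (y axis, percent) by distance to the nearest LNCaP-abl peak (x axis, kb, log axis), for 138 remaining and 107 centromere-side sites. The median is 15.9 kb for remaining sites and 4.11 kb for centromere-side sites.

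At the far end, chr13:84456175-84456391 lay 3391 kb from the nearest LNCaP-abl peak, with 8.11 under DHT and 5.66 under vehicle. The site at chr5:20056789-20057125, with 12.5 under DHT and 4.08 under vehicle, was 1402 kb away, and chr12:20704405-20704623, with 5.09 under DHT and 5.60 under vehicle, was 886 kb away. The first 2 were the only remaining sites with no LNCaP-abl peak within 1 Mb.

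The edges of the overlap rule were narrow. The nearest sites to a LNCaP-abl peak were chr14:101053558-101053785, with 1 bp between them, chr18:70536039-70536480, with 3 bp, and chr3:47018057-47018266, with 20 bp. Just outside the rule, chr22:42310384-42310606 shared 18 bp with a LNCaP-abl peak, chr1:82267483-82267999 shared 25 bp and chr7:29234685-29234954 shared 40 bp. On the DHT side, the smallest overlaps inside the rule were 1 bp at chr19:18809214-18809425, 5 bp at chr3:47018057-47018266 and 19 bp at chrX:70473356-70473709. Outside it, chr15:27216196-27216395 touched a DHT peak without a shared base, chr9:79250043-79250242 was 1 bp away and chr19:11175156-11175355 was 11 bp away. The weakest sites were chr17:7608481-7608721, with 2.05 under DHT and 2.83 under vehicle, chr15:77789709-77790143, with 2.56 under DHT and 8.96 under vehicle, and chr18:28622961-28623196, with 6.34 under DHT and 2.63 under vehicle. At 5 remaining and 2 centromere-side sites the DHT peak itself overlapped a LNCaP-abl peak that the vehicle peak missed.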

How the data were processed

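The submitters' processing notes name Bowtie 0.12.7, MACS2 2.0, FastQC 0.10.0 and hg19. The deposited lists give 1 score per peak, a −log10 p or q value that the authors' files do not name further. Each list carries the name of 1 library. For the cutoff, read filters and use of the 3 inputs, nothing is given in the sources used here. The inputs were not analysed here. The lists give no depth. Unequal depth changes peak numbers, widths and scores.

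Overlaps of at least 1 bp were found with Python 3.11.15 (numpy 2.4.6, pandas 2.3.3, scipy 1.17.1) and checked against bedtools 2.31.1, with 0 peaks differing, and on simulated lists. Where a vehicle peak overlapped several DHT peaks, the highest-scoring one was used. Distances run from edge to edge. Centromere gaps of hg19, with adjoining heterochromatin gaps, were entered by hand from general knowledge of the assembly. Of 37470 peaks, 0 lay inside them. Percentiles and deciles are within the whole list. Intervals are exact Clopper-Pearson 95%. Figures were drawn with matplotlib 3.10.9.

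The sites and groupings were chosen with earlier results of these data known. Named were all mitochondrial sites, the 8 centromere-side and 20 remaining sites with the highest lower score, and 3 at each edge of the rule. Gene positions and sequence content had been planned and need hg19 annotation or sequence.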

Additional observations from a re-analysis of the deposited data

How the results depend on the processing

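No paired analysis was possible because there was 1 library per condition, which also leaves none to omit. Of 151 values recomputed for 17 results, 93 stayed within their interval or within 1.5 times their count and 58 did not. The number of sites depended most on how overlap and list length were set. With a reciprocal overlap of at least 50%, there were 1904 sites, 60.2% of vehicle peaks with a DHT peak, with 1791 remaining and 3 mitochondrial. Of the remaining ones, 96.3% then lay under 10 kb from a LNCaP-abl peak or overlapped one too little for this rule. Their medians were scores of 7.34 under DHT and 7.95 under vehicle and widths of 330.0 bp in both lists. With peaks of 400 bp there were 710 sites (14.5%), 599 of them remaining, with 86.5% under 10 kb, a median DHT score of 7.02 and, by construction, widths of 400 bp. With all lists at 7105 peaks there were 886 sites (21.7%), 727 of them remaining. Medians were then a vehicle score of 7.98, widths of 315 bp under DHT and 321 bp under vehicle and 1 LNCaP-abl peak within 100 kb, and 12.2% lay under 10 kb. In the better-scoring 50% of each list 14.9% of vehicle peaks with a DHT peak lacked a LNCaP-abl peak, and 214 sites remained outside mitochondria and centromere sides. They had median scores of 10.8 under DHT and 9.99 under vehicle, widths of 357 bp and 352.5 bp, 1 LNCaP-abl peak within 100 kb and 16.4% under 10 kb. Shortening the LNCaP lists alone in this way gave 147 sites (6.49%), 64 of them remaining, with median scores of 10.5 under DHT and 8.79 under vehicle and widths of 339.5 bp and 336.5 bp. Counting a LNCaP-abl peak within 1 kb as shared left 4.22% of vehicle peaks with a DHT peak without one, and 29.6% of the remaining sites under 10 kb. With grouped sites left out, a setting chosen after seeing the data, chromosome 2 held 3.06% of the remaining sites. Centromere-side sites numbered between 78 and 154 in all settings that used the centromere gap. A setting that instead counted sites in 1 Mb windows with 5 or more of them, wherever these lay, gave 97. Their share of all sites, and the shares lacking a LNCaP-abl peak beside centromeres and elsewhere, were added to the alternatives after seeing the data. The first, 42.8%, became 5.78% with the reciprocal overlap, 15.1% with peaks of 400 bp, 17.4% with lists of equal length, 35.0% in the better-scoring 50%, 53.1% with the LNCaP lists alone shortened and 35.2% with a flank of 0.5 Mb. The second, 60.1%, became 74.8% with the reciprocal overlap, 48.9% with the 1 kb rule, 85.5% in the better-scoring 50%, 90.6% with lists of equal length and 48.7% with a flank of 2 Mb. The third, 3.03%, became 59.4%, 2.37%, 10.1% and 18.6% in the first 4 of these and 12.7% with peaks of 400 bp. Shorter LNCaP-abl lists and stricter overlap rules find fewer partners by construction; the cause of the other shifts was not tested. The unknown depth limits any reading of an absent peak.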

Other observations

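Seen from the LNCaP-abl list, the centromere sides were not simply poorer in TRIM24 peaks. Of its 239 centromere-side peaks, 121 (50.6%, 44.1 to 57.1) overlapped no LNCaP peak and 80 (33.5%, 27.5 to 39.8) overlapped both a DHT and a vehicle peak. Elsewhere these shares were 57.9% (57.2 to 58.6) and 21.1% (20.5 to 21.6) of 20382 peaks. The LNCaP-abl peaks that overlapped both LNCaP lists had a median score of 15.7 beside centromeres and 97.5 elsewhere. Of the 238 centromere-side DHT peaks, 105 (44.1%, 37.7 to 50.7) had a vehicle peak and no LNCaP-abl peak, and a further 51 (21.4%, 16.4 to 27.2) had neither.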
